A study of Mus musculus with 57 samples.

Results

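The end-of-day comparison at ZT11.5 (Zeitgeber time, in hours after the usual lights-on) set visual cortex taken on a day with light against visual cortex taken at the same hour on a day when the lights had stayed off. It comprised 8 libraries of the 57 in the series, chosen by their labels, with 4 in the Light ZT11.5 group and 4 in the Dark ZT11.5 group. All came from wild-type mice kept on a light-dark cycle, and the arms were defined by whether the lights came on during the day of collection. Light ZT11.5 animals had therefore had light for nearly the whole light phase, while Dark ZT11.5 animals had been in darkness since the preceding night. The sources used here do not give strain, age or sex, nor do they say whether each library came from 1 animal or from a pool. RNA was measured by MARS-seq, which sequences short stretches near the poly(A) tail of each transcript, and values are the authors' normalised read counts. Differences are light minus dark on the log2(value + 1) scale, and a gene is said to have risen or fallen where its Benjamini-Hochberg adjusted p in limma, over 10526 genes tested, was under 0.05.

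Light reaching the retina drives firing in visual cortex neurons, and calcium entering the active neuron starts kinase cascades that act on factors already present in the nucleus, among them CREB and the serum response factor. Within minutes these switch on immediate-early genes, most of which encode short-lived transcription factors of the Egr, AP-1 and Nr4a families. Those factors in turn drive later genes whose products act at synapses, and phosphatases and degradation factors among the early genes end the response. The comparison asks which of these transcripts still differed at the end of a lit day.

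In light 14 genes rose (0.133% of genes tested) and 2 fell (0.019%). Of the 14 risers, 8 encode factors of the Egr, AP-1 and Nr4a families (Egr1, Egr2, Egr3, Egr4, Fos, Fosb, Junb and Nr4a1), and the others were Arc, Midn, Gadd45a, Sh2b3, Hivep2 and Smurf1. Tmem138 and Rpl37rt fell. Over all genes 5223 differences were positive and 5303 negative, with a median of -0.0015. At an unadjusted p under 0.05 there were 435 genes higher (4.13%) and 409 lower (3.89%). These are the shares to set beside the counts at that level in the gene lists below. The lists were chosen with earlier results of these data known, so such counts describe them and are not independent tests. The light libraries lay above every dark library for 360 genes (3.42%) and below every one for 314 (2.98%), and this held for 13 of the 14 risers and for both genes that fell. The exception was Arc.

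**Figure D1:**
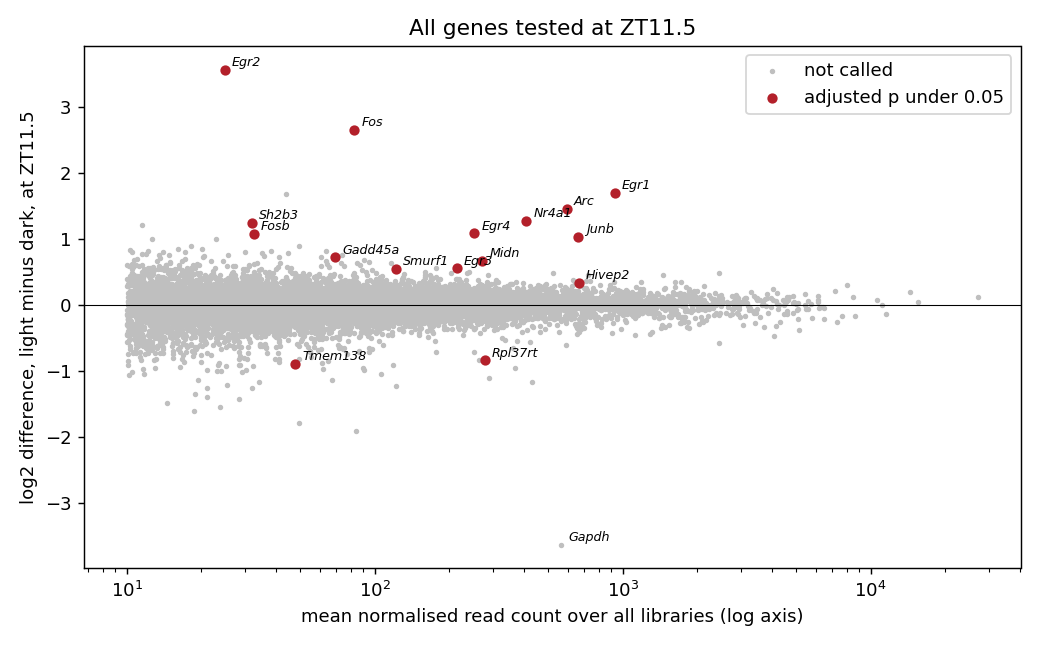
Log2 difference at ZT11.5, light minus dark, against the mean normalised read count over all libraries (log axis), for the 10526 genes tested; red points have an adjusted p under 0.05. The called genes lie on the upper side except Tmem138 and Rpl37rt, and Gapdh, at -3.64, was not called.

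Depth ran from 2266362 to 3353306 reads in these 8 libraries, and pairs of replicates differed by more than counting noise (chi-square of 2.17 to 4.38 per degree of freedom). Replicates 3 and 4 of each arm had Xist, the RNA that silences an X chromosome in females, above 20, and replicates 1 and 2 had at most 3.96. Xist and the Y-linked genes Ddx3y, Eif2s3y, Kdm5d and Uty summed to 30.1 to 48.2 in light and 26.0 to 89.9 in dark libraries. In replicates 1 and 2 most of that sum thus came from the Y-linked genes. Xist alone was at 47.3 in light replicate 3 and at 87.9 in dark replicate 4, close to the highest sum of each arm. Malat1, a nuclear noncoding RNA, was at 133, 167, 38.2 and 21.1 in light replicates 1 to 4 and at 49.0, 69.2, 182 and 215 in dark replicates 1 to 4, so that it was higher in replicates 1 and 2 of the light arm and in replicates 3 and 4 of the dark arm. The choroid plexus gene Ttr varied widely, and was at 8834, 108, 7478 and 1881 in the light and 6462, 1764, 286 and 20493 in the dark libraries. With Ttr as a term 15 genes rose and 3 fell, and with a term for Xist above 20 the counts were 17 and 3.

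Immediate-early genes are known to be switched on by CREB and the serum response factor from sites near their starts, so the start regions of the factors that rose are printed here. Each line is the 250 bases before a RefSeq transcription start (GRCm38.p6), 5′ to 3′ on the gene's strand, for 5 of the called factors. Capitals mark TGACG on either strand, the core of a CREB site, and the CArG box, the site of the serum response factor. The windows are chr12:85473640-85473889 (plus strand) for Fos, chr8:84978749-84978998 (minus) for Junb, chr15:101266596-101266845 (plus) for Nr4a1, chr6:85513590-85513839 (minus) for Egr4 and chr10:67537619-67537868 (plus) for Egr2, where the middle of 5 listed starts was taken.
Fos: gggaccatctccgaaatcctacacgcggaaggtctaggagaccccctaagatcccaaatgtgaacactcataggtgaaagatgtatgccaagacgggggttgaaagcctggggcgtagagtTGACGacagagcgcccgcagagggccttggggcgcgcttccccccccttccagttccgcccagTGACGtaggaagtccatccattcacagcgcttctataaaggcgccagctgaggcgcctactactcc
Junb: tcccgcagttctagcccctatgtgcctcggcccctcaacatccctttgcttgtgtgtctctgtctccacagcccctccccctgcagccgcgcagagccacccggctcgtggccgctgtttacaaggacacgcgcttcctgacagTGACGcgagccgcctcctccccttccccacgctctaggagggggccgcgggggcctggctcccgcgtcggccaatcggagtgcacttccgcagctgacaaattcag
Nr4a1: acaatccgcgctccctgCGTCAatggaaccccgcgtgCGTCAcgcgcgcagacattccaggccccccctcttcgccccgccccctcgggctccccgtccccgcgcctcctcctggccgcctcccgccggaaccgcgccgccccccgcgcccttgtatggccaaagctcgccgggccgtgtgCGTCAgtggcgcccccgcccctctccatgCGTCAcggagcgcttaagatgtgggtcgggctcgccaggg
Egr4: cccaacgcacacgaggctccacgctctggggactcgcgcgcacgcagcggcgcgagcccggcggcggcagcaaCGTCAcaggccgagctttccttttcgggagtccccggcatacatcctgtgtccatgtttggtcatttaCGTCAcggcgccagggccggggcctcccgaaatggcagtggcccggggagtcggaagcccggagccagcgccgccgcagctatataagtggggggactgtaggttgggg
Egr2: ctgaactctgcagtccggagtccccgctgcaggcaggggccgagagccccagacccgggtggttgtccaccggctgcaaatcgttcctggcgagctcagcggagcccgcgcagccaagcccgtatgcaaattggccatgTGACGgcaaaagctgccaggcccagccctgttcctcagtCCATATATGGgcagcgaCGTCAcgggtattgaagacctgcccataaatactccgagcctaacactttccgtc

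TGACG or its complement began 129 and 66 bases before the start of Fos, 106 before that of Junb, 233, 213, 69 and 40 before that of Nr4a1, 177 and 109 before that of Egr4, and 111 and 55 before that of Egr2. Egr2 also held a CArG box 72 bases before the start, between its TGACG matches. Windows were on hand for 13 of the 16 called genes, and not for Egr1, Egr3 and Arc. Of the 13, 11 rose, and 7 of these 11 held TGACG while 1 held a CArG box. The windows of Nr4a1 and Egr2 lie inside the annotated spans of those genes (chr15:101254269-101274795 and chr10:67535475-67542188), whose first bases are thus upstream of the windows. The matches depended on the start taken. For Egr2 TGACG stood before 3 of 5 starts and a CArG box before 4, and for Midn TGACG stood before 1 of 2. Of all 32851 promoter windows of this length 17.8% held TGACG and 1.47% a CArG box, and of those of tested genes 26.5% and 1.18%. Midn and Fosb were the other risers with TGACG in the window, and Sh2b3, Gadd45a, Hivep2 and Smurf1 had neither sequence there. A match of letters is a description and does not show that a factor binds.

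Egr genes encode zinc finger factors that bind GC-rich promoter sites, and all 4 of them rose. Egr1 was at 1286, 944, 1365 and 1199 in light replicates 1 to 4 and at 383, 359, 294 and 439 in dark replicates 1 to 4. The lowest light library was more than double the highest dark one, and the log2 difference was 1.70 (SE 0.17, adjusted p = 3.2e-10). Egr2 was nearly silent without light, at 0, 2.97, 2.39 and 1.98 in the dark libraries against 27.7, 23.2, 36.4 and 29.5 in the light libraries. Its log2 difference of 3.57 (SE 0.54, adjusted p = 6.5e-05) depended on the pseudocount: at 5 in place of 1 it was 2.33, under the 2.41 of Fos. In 1 dark library Egr2 had no read. Egr4 reached 293, 281, 409 and 355 with light and 157, 158, 130.3 and 181 without (1.08, SE 0.17, adjusted p = 8.5e-05). Egr3 differed least, at 228, 212, 206 and 208 against 159, 137, 121 and 168 (0.55, SE 0.12, adjusted p = 0.033), and its light values lay close together. Nab2, a corepressor that binds Egr proteins, did not pass, with 161, 159, 212 and 195 in light and 149, 157, 128 and 134 in dark libraries (log2 difference 0.35, adjusted p = 0.59). In light replicates 1 and 2 it stood just above the dark range, and in replicates 3 and 4 well above it.

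AP-1 is a dimer of Fos and Jun proteins. Of 6 AP-1 and ATF genes tested Fos, Fosb and Junb rose and 0 fell in limma, edgeR and DESeq2 alike, with a median log2 difference of 0.67. Fos was at 77.6, 58.9, 165 and 171 in the light libraries, in order of replicate, and at 13.5, 17.8, 13.1 and 20.7 in the dark libraries (2.66, SE 0.34, adjusted p = 1.3e-06). Fosb, its close relative, had 32.5, 35.7, 29.1 and 29.5 in light and 16.3, 22.7, 13.1 and 8.89 in dark libraries (1.07, SE 0.23, adjusted p = 0.022). The light values of Fos fell into a lower pair and a higher pair, while those of Fosb did not. Junb, which dimerises with Fos proteins, was at 621, 468, 1101 and 1065 against 409, 410.4, 282 and 407 (1.03, SE 0.23, adjusted p = 0.035), with the same split among the light libraries. The Jun proteins Jun and Jund, partners of Fos, had differences of -0.12 (95% interval -0.40 to 0.15) and -0.12 (-0.38 to 0.15), and their groups overlapped. Fosl2, a late Fos relative, was at 29.3, 21.4, 38.2 and 27.9 against 14.4, 21.8, 31.1 and 27.7 (0.31, adjusted p = 0.82), also with overlap.

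Among the orphan nuclear receptors, which bind DNA without a known natural ligand, Nr4a1 rose and its relatives did not pass. Nr4a1 was at 373, 339, 806 and 589 in light and at 198, 197, 202 and 221 in dark libraries, the latter within a narrow range (1.27, SE 0.20, adjusted p = 9.2e-05). Nr4a2 was at 35.6, 20.5, 35.5 and 38.8 against 23.1, 32.6, 16.7 and 12.8 (0.63, adjusted p = 0.46). Nr4a3 was at 14.2, 16.1, 12.7 and 8.44 against 3.85, 10.9, 26.3 and 42.5 (-0.25, adjusted p = 0.96), with its highest values in dark replicates 3 and 4.

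**Figure D2:**
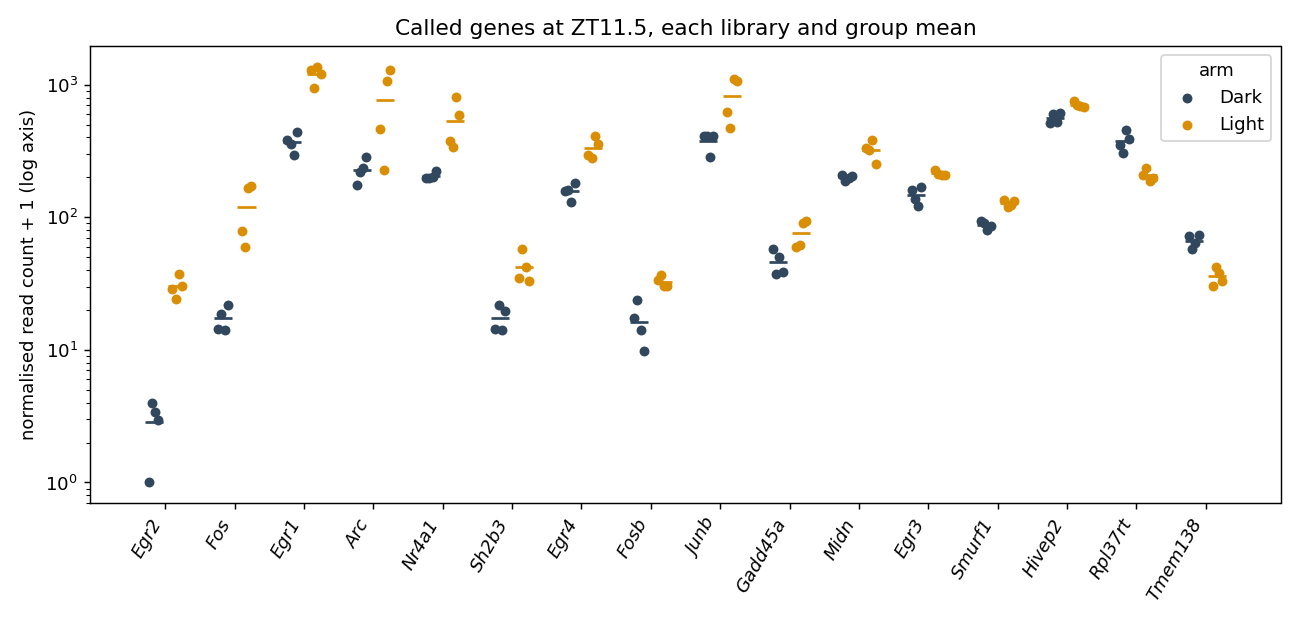
Normalised read count + 1 (log axis) of the 16 called genes at ZT11.5 in each library, 4 dark and 4 light, with the group mean as a bar, ordered by log2 difference. Light points lie above dark points for 13 of the first 14 genes, Arc being the exception, and below them for Rpl37rt and Tmem138.

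Midn and Gadd45a were the risers among 25 other rapid-response genes tested, whose median log2 difference was 0.36. Midn encodes midnolin, which carries immediate-early proteins to the proteasome, and was at 329, 322, 379 and 249.9 in light and 208, 187, 197 and 203 in dark libraries (0.67, SE 0.10, adjusted p = 8.5e-05). Gadd45a, a growth arrest and DNA damage gene, was at 58.6, 60.7, 89.2 and 92.0 against 56.7, 36.6, 49.0 and 37.5 (0.72, SE 0.16, adjusted p = 0.033), and its lowest light library was barely above its highest dark one. Counted at an unadjusted p under 0.05, 13 of the 25 were higher and 0 lower, against 4.13% and 3.89% of all genes tested. The list was chosen with earlier results of these data known, so this count is a description and not a test. Npas4, a neuron-specific factor that acts on inhibitory synapses, was at 95.0, 34.8, 54.6 and 54.0 against 14.4, 14.8, 20.3 and 17.8 (1.69, SE 0.43, adjusted p = 0.078). The groups did not overlap, but light replicate 1 was far above the other light libraries; DESeq2 called the gene (adjusted p = 0.044). Sertad1, a cell cycle regulator, was at 99.7, 90.2, 111 and 106 against 66.3, 73.2, 72.9 and 55.3 (0.60, adjusted p = 0.078) and was likewise called by DESeq2 alone (adjusted p = 0.043). Ier2, Gadd45b and Trib1, early genes that did not pass here, had differences of 0.73, 0.47 and 0.61 (adjusted p = 0.32, 0.25 and 0.38). In each of these the light libraries of replicates 3 and 4 were the high ones, for example 43.5, 34.8, 115 and 94.5 in light against 40.4, 29.7, 44.2 and 39.5 in dark libraries for Ier2. The secreted matrix gene Cyr61 was at 25.3, 11.6, 33.7 and 47.3 against 10.6, 9.89, 15.5 and 15.8 (1.00, adjusted p = 0.43).

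Apart from Midn, the genes known to restrain the response did not pass. Of 14 phosphatases of MAP kinases and other feedback inhibitors 0 were called by limma, edgeR and DESeq2, with a median of 0.10. In limma 4 were higher and 0 lower at an unadjusted p under 0.05, against 4.13% and 3.89% of all genes tested. Dusp1, which inactivates MAP kinases in the nucleus, was at 82.3, 70.5, 258 and 173 in light and 79.8, 72.2, 81.3 and 92.8 in dark libraries (0.64, adjusted p = 0.46). Light replicates 1 and 2 lay within or below the dark range and replicates 3 and 4 above it. Dusp14 was at 419, 431, 429.6 and 442 against 369, 352, 311 and 334 (0.34, adjusted p = 0.23), a small difference without overlap. Spry4 and Dusp6, both feedback inhibitors of growth factor signalling to ERK, had differences of 0.60 and 0.55 (adjusted p = 0.29 and 0.42). Among 11 Krueppel-like factors, zinc finger factors of growth and differentiation, limma, edgeR and DESeq2 called 0 as well, and Klf10 was the 1 at an unadjusted p under 0.05 (70.5, 81.2, 121 and 90.3 against 77.9, 67.2, 47.8 and 64.2, 0.48, adjusted p = 0.46).

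Among genes whose products act at or between synapses Arc rose. It was the only call in limma of 19 activity effectors, whose median log2 difference was 0.20. At an unadjusted p under 0.05, 5 of the 19 were higher and 0 lower, against 4.13% and 3.89% of all genes tested. Arc, whose protein forms capsid-like shells and removes AMPA receptors from synapses, was at 459.9, 226, 1068 and 1287 in light and 173, 218, 235 and 281 in dark libraries (1.46, SE 0.32, adjusted p = 0.03). Light replicate 2 lay inside the dark range, replicate 1 somewhat above it, and replicates 3 and 4 several-fold above it. Nptx2, a secreted pentraxin that gathers AMPA receptors, was at 129, 116, 97.4 and 90.3 against 81.7, 62.3, 56.2 and 77.0 (0.64, adjusted p = 0.3) without overlap. Vgf, the precursor of secreted neuropeptides, was at 1405, 1425, 1689 and 1709 against 1253, 1275, 942 and 1073 (0.46, adjusted p = 0.13), also without overlap. Cdkn1a, the cell cycle inhibitor p21, lay just outside the threshold at 90.2, 76.8, 88.3 and 77.7 against 57.7, 40.5, 52.6 and 56.3 (0.68, SE 0.16, adjusted p = 0.051). Bdnf, the neurotrophin, was at 14.2, 15.2, 13.7 and 12.7 against 10.6, 11.9, 14.3 and 13.8 (0.14, 95% interval -0.49 to 0.76), and Homer1, a postsynaptic scaffold, had a difference of 0.30 (-0.22 to 0.82). The 95% interval of Scg2, a secretory granule protein, was -0.14 to 0.18.

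The factors and kinases upstream of the response did not pass. Of 18 tested, among them kinases of the MAP kinase and calcium pathways, limma, edgeR and DESeq2 called 0, with a median of 0.01 and 0 at an unadjusted p under 0.05 in either direction. The values farthest from 0 on each side were those of Rps6ka2 (-0.28, 95% interval -0.65 to 0.10) and Camk4 (0.25, -0.10 to 0.59), both kinases.

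The remaining risers belong to no activity family. Sh2b3 encodes an adaptor, also named Lnk, that restrains cytokine receptor signalling in blood cells, and was at 34.0, 56.2, 41.0 and 32.1 in light and 13.5, 20.8, 13.1 and 18.8 in dark libraries (1.25, SE 0.21, adjusted p = 0.00038). Its lowest light value was well above its highest dark value. Of 9 adaptors of its family and SOCS proteins tested it was the only one called by limma, edgeR or DESeq2. Socs3, which blocks JAK kinases, was at 16.6, 18.7, 24.6 and 12.7 against 9.61, 11.9, 7.17 and 10.9 (0.80, adjusted p = 0.53), and Socs2 was at 57.8, 64.3, 55.5 and 63.3 against 93.2, 70.2, 72.9 and 82.0 (-0.39, adjusted p = 0.48). Smurf1, a ubiquitin ligase of the BMP pathway, was at 133, 119, 124 and 131 against 92.3, 89.0, 78.9 and 84.9 (0.55, SE 0.13, adjusted p = 0.037). Hivep2, a large zinc finger factor, showed the smallest difference among the called genes, at 754, 703, 684 and 672 against 511, 595, 522 and 606 (0.33, SE 0.08, adjusted p = 0.033). Sh2b3 lies on chromosome 5 (121815488 to 121837646, minus strand, GRCm38), Smurf1 on 5 (144876495 to 144965847, minus) and Hivep2 on 10 (13966075 to 14151374, plus), and all encode proteins.

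Tmem138, which encodes a membrane protein of the transition zone at the base of cilia, fell. It was at 29.3, 41.1, 37.3 and 32.1 in light and 71.1, 56.4, 63.3 and 72.1 in dark libraries (-0.90, SE 0.20, adjusted p = 0.033), on chromosome 19 (10570478 to 10577362, minus strand). Cyb561a3 overlaps its first bases on the opposite strand, and the strand setting of the counting is not known. The neighbouring gene Tmem216, on 19 (10533865 to 10556238, minus), encodes another protein of that structure and was below the minimum level for testing. Tmem138 was the only 1 of 16 ciliary transition zone genes tested to pass, and their median log2 difference was -0.07. Tctn1 and Ahi1, which also act at that site, were lower in each light library than in every dark library without passing. With Tmem138 they made 3 of the 16 in that layout, which 2.98% of all genes tested held. Tctn1 was at 27.7, 26.8, 18.2 and 30.4 against 47.1, 36.6, 32.3 and 36.5 (-0.56, adjusted p = 0.3) and Ahi1 had -0.21 (adjusted p = 0.57).

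Rpl37rt, the other gene that fell, is a retrocopy of the ribosomal protein gene Rpl37, and reads of the copies may have been shared in counting. Rpl37rt (chromosome 5, 115102923 to 115110268, minus strand) was at 209, 235, 187 and 198 in light and 353, 304, 454 and 385 in dark libraries (-0.84, SE 0.16, adjusted p = 0.0025). Rpl37 itself was at 3564, 3892, 3097 and 3186 against 4406, 4199.8, 5821 and 4705 (-0.47, SE 0.11, adjusted p = 0.051), just outside the threshold, and edgeR and DESeq2 called it. Dark replicate 3 had the highest value of both genes. Of 71 ribosomal protein genes tested limma called 0, while 59 had a negative difference, with a median of -0.16. At an unadjusted p under 0.05, 17 were lower and 0 higher, against 3.89% and 4.13% of all genes tested. In 13 of the 71 the light range lay wholly under the dark range, a layout held by 2.98% of all genes tested, and ribosomal protein genes have many near-identical copies that could take some of their reads. Without dark replicate 3 there were 50 negative, 10 at that level and a median of -0.10. Rpl35 and Rpl37 were the members called by DESeq2, and Rpl35 was at 742, 604, 638 and 649 against 786, 876, 822 and 904 (-0.37, adjusted p = 0.11). Of 78 subunits of oxidative phosphorylation limma, edgeR and DESeq2 called 0. Their differences were negative in 54, with a median of -0.07. At an unadjusted p under 0.05, 13 were lower and 2 higher, against 3.89% and 4.13% of all genes tested. The 13 became 6 without light replicate 4, 7 without dark replicate 3 or dark replicate 4, and 8 with the thalamus genes Prkcd and Tnnt1 as terms, and the median was -0.03 without dark replicate 3. Ndufc1, of complex I, was at 515, 459, 558 and 429 against 632, 643, 728 and 610.3 (-0.42, adjusted p = 0.23), whereas Sdha, of complex II, was at 1047, 1124, 1079 and 1013 against 951, 946, 958 and 870.1 (0.19, adjusted p = 0.38).

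Of 17 genes that glucocorticoids are known to raise limma and edgeR called 0 and DESeq2 called Cdkn1a. Among their differences 12 were negative, with a median of -0.22. At an unadjusted p under 0.05, 5 were lower and 1, again Cdkn1a, higher, against 3.89% and 4.13% of all genes tested. Sgk1, a kinase of ion transport, was at 231, 240.2, 268 and 387 in light and 429.7, 422, 527 and 612 in dark libraries (-0.84, SE 0.24, adjusted p = 0.18). Arrdc2, an arrestin-domain protein, was at 46.7, 53.6, 54.6 and 61.6 against 72.1, 75.2, 99.2 and 95.8 (-0.64, adjusted p = 0.26), and Nfkbia, the inhibitor of NF-κB, at 157, 187, 185 and 209 against 234, 219, 312 and 238 (-0.43, adjusted p = 0.39). No light library of these 3 genes reached the dark range, a layout held by 2.98% of all genes tested. The counts at an unadjusted p under 0.05 fell to 2 lower without dark replicate 3 and to 3 without dark replicate 4 or light replicate 2. Of 16 clock genes 0 were called by limma, edgeR and DESeq2, 1 was higher and 1 lower at an unadjusted p under 0.05, and the median was -0.01. Per2, a repressor of the clock, was at 71.2, 54.5, 67.4 and 45.6 against 46.1, 35.6, 35.8 and 54.3 (0.46, adjusted p = 0.38) and Per3 at 49.9, 71.4, 53.7 and 38.8 against 52.9, 64.3, 70.5 and 83.0 (-0.35, adjusted p = 0.56).

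**Figure D3:**
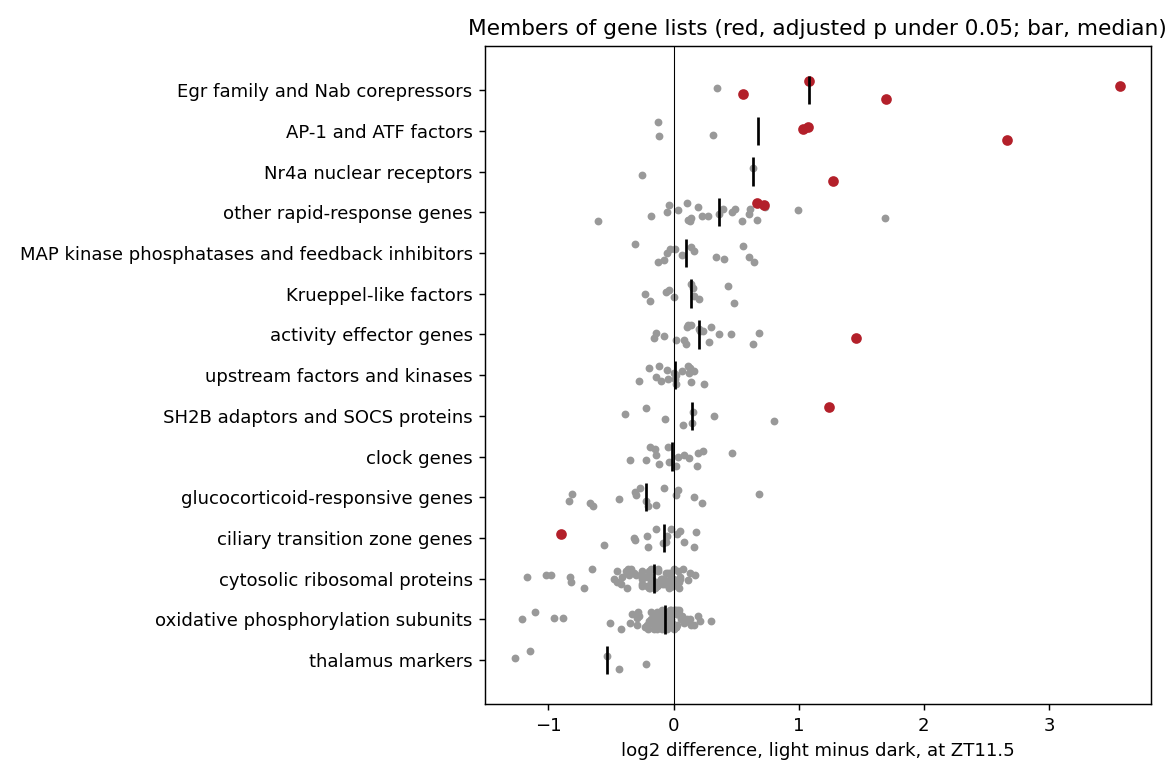
Log2 difference at ZT11.5, light minus dark, of the tested members of 15 gene lists (one point per gene, red where the adjusted p was under 0.05, bar at the median; vertical spread within a row carries no value). The medians of the Egr, AP-1 and Nr4a lists are 1.08, 0.67 and 0.63, and that of the ribosomal proteins is -0.16.

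Cell type markers described the tissue. Excitatory neuron markers summed to 35785 to 42735 in light and 36199 to 38829 in dark libraries, and astrocyte markers to 6523 to 7231 and 6531 to 6904. Oligodendrocyte markers summed to 23105 to 25676 with light and 20298 to 23246 without, ranges that overlapped little, and 0 of 10 had an unadjusted p under 0.05. Meningeal fibroblast markers summed to 7789 to 10598 with light and 8962 to 10891 without, and 2 of 6 were lower at that level. Ptgds alone was at 9684 in its highest light library and at 7231 in the next, so the light sums rested largely on that gene. Interneuron markers summed to 5885 to 6271 with light and 5504 to 5825 without, so that the sums did not overlap, though limma, edgeR and DESeq2 called 0 of 10 members (1 higher and 2 lower at an unadjusted p under 0.05). Pvalb, the marker of fast-spiking interneurons, was at 313, 349, 356 and 299.7 against 386, 435, 519 and 425 (-0.42, adjusted p = 0.58), while Sst was at 2471, 2439.9, 2480.2 and 2641 against 2234, 2208, 2238 and 2164 (0.18, adjusted p = 0.67). Adarb2 was the other lower member (-0.86, adjusted p = 0.33) and Lamp5 the higher one (0.27, adjusted p = 0.53), and Sst was in neither count. Whether such values reflect more cells of a type or more RNA per cell cannot be told apart in bulk tissue. Microglia markers summed to 2572 to 2863 in light and 2635 to 2874 in dark libraries. Of 5 blood genes 4 were listed at 0 in all 8 libraries. The other, Alas2, gave the whole blood sum, 105.6 to 173.1 in light and 130.4 to 175.9 in dark libraries. The zeros therefore do not show that blood RNA was absent.

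Thalamus markers were lower in light in 5 of 5 members tested, with a median of -0.53. Limma, edgeR and DESeq2 called 0 of them, and 3 were lower at an unadjusted p under 0.05, against 3.89% of all genes tested. The 3 became 1 without dark replicate 1 or light replicate 1 and 2 without dark replicate 2 or light replicate 2. The median ran from -0.80 to -0.38 with 1 library left out. Their sums ran from 153.6 to 223 in light and from 173.8 to 462.4 in dark libraries. Tnnt1 was at 20.6, 36.6, 39.1 and 14.4 against 140.3, 78.1, 70.5 and 19.8 (-1.26, adjusted p = 0.36), Tcf7l2 at 7.12, 13.4, 23.7 and 11.8 against 38.5, 25.7, 27.5 and 28.6 (-1.15, adjusted p = 0.46) and Prkcd at 72.0, 53.6, 71.9 and 70.9 against 166, 97.9, 98.0 and 41.5 (-0.43, adjusted p = 0.79). Dark replicate 1 was highest for each of these. With Prkcd and Tnnt1 as terms 11 genes rose and 1 fell, and Arc, Egr3, Hivep2, Junb, Smurf1 and Tmem138 were not called. Their log2 differences in that fit were 1.20, 0.53, 0.28, 0.81, 0.45 and -0.79, against 1.46, 0.55, 0.33, 1.03, 0.55 and -0.90 without the terms. Choroid plexus markers summed to 262.5 to 9463 in light and 456.5 to 21749 in dark libraries.

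The size of the response differed among the light libraries. Replicates 3 and 4 of the light arm, which were the libraries with Xist above 20, were higher than replicates 1 and 2 in Fos, Junb, Nr4a1, Arc, Gadd45a, Dusp1, Ier2 and Gadd45b, genes picked after their values were seen. Fosb, Nptx2 and Nr4a3 were lower in replicates 3 and 4 of that arm than in replicates 1 and 2. Within replicates 1 and 2 the light-dark difference of Fos was 2.06, and within replicates 3 and 4 it was 3.27. For Junb the values were 0.40 and 1.67, for Arc 0.73 and 2.18, and for Dusp1 0.01 and 1.27. Egr1 (1.57 and 1.83), Egr3 (0.57 and 0.53) and Egr2 (3.73 and 3.41) differed less between the pairs. Each of the 14 risers had a positive difference in both pairs, and 9 of the 14 had the larger one in replicates 3 and 4, as did 53 of 83 genes of the rapid-response and effector lists (63.9%) and 5567 of all 10526 genes (52.9%). No test was made of this contrast, and the part of Xist or Malat1 level in it was not tested. With a term for replicates 3 and 4 in each arm 20 genes rose and 5 fell.

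**Figure D4:**
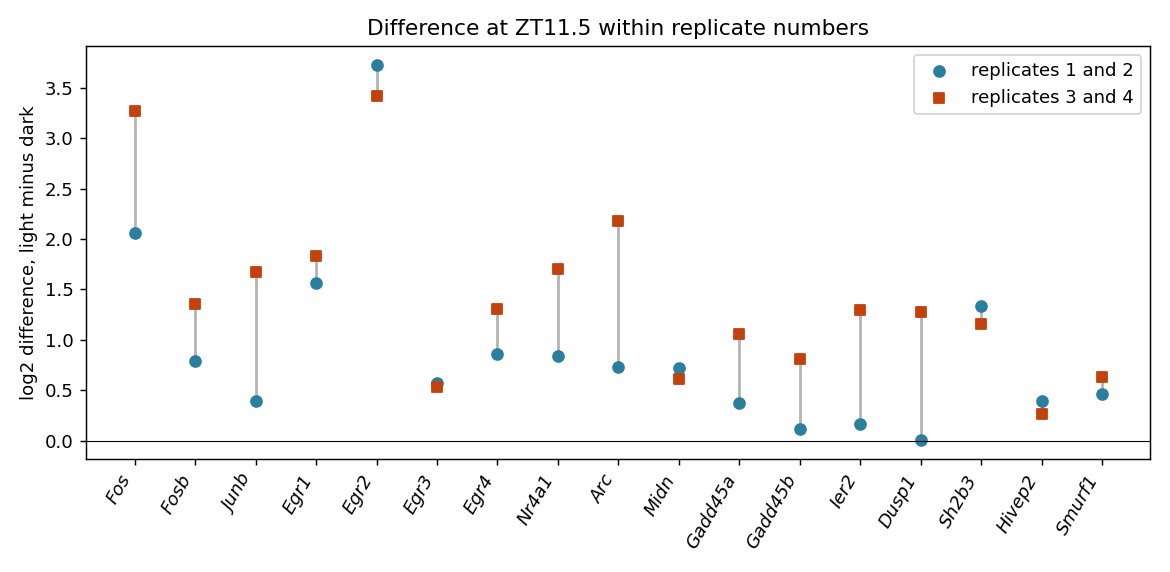
Log2 difference at ZT11.5, light minus dark, computed within replicates 1 and 2 (circles) and within replicates 3 and 4 (squares) for 17 genes, each from 2 light and 2 dark libraries. Fos, Junb, Arc, Ier2 and Dusp1 show the larger difference in replicates 3 and 4, while Egr2, Egr3, Midn, Sh2b3 and Hivep2 do not.

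The same arms were compared at ZT1, ZT3 and ZT7.5, with 4 libraries in each group except 3 at Dark ZT1, and the differences between hours were tested as interaction terms. Of the 14 risers at ZT11.5, 10 were among the 27 genes called at ZT1 and 6 among the 13 called at ZT3, and limma called 0 of 10526 genes at ZT7.5. In limma and edgeR Egr1 was the only gene (0.0095%) whose light-dark difference at ZT11.5 passed the test against another hour, in this case ZT7.5, while DESeq2 called 3 there (1 higher and 2 lower). In limma 703 genes (6.68%) had an unadjusted p under 0.05. The Egr1 difference was 1.63 at ZT1, 1.22 at ZT3, 0.41 at ZT7.5 and 1.70 at ZT11.5, and the last exceeded that at ZT7.5 by 1.29 (SE 0.23, adjusted p = 0.012). In light libraries Egr1 was 825 ± 251 at ZT7.5 and 1198 ± 183 at ZT11.5 (SD, n = 4 each), and in dark libraries 600.0 ± 67.9 and 369 ± 60.2. The light mean was thus higher, and the dark mean lower, at the later hour. The call rested on several libraries: 6 of the leave-one-out fits lost it, with an adjusted p of up to 0.127 without light replicate 2 of ZT7.5. Between ZT11.5 and ZT1, and between ZT11.5 and ZT3, limma, edgeR and DESeq2 called 0 genes, with 362 (3.44%) and 617 (5.86%) at an unadjusted p under 0.05 in limma.

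With a pseudocount of 1, Fos and Egr2 had differences at ZT11.5 close to those at ZT1, at lower levels in both arms. Fos in light libraries was 389 ± 76.0 at ZT1, 93.3 ± 17.2 at ZT3, 58.1 ± 30.1 at ZT7.5 and 118 ± 57.9 at ZT11.5, while its dark level was 48.9 ± 6.98, 44.5 ± 9.82, 30.2 ± 3.24 and 16.3 ± 3.65 (SD; n = 4, and 3 at Dark ZT1). The light-dark differences at those hours were 2.96, 1.06, 0.77 and 2.66. The change in the difference from ZT1 to ZT11.5 was -0.30 (SE 0.51). The change for Egr2 was -0.04 (SE 0.80), an SE too wide to show that the sizes were equal. Its light means were 185 ± 25.1 at ZT1 and 29.2 ± 5.48 at ZT11.5, against dark means of 14.2 ± 1.16 and 1.83 ± 1.29. At such low dark values the difference depends on the pseudocount, and at 5 that of Egr2 at ZT11.5 was 2.33. Arc, Junb, Nr4a1 and Egr4 had smaller differences at ZT11.5 than at ZT1, by -0.99 (SE 0.47), -1.05 (SE 0.35), -1.05 (SE 0.30) and -0.94 (SE 0.25), and none of these passed (adjusted p at least 0.51). Early factors with a call at ZT1 and none at ZT11.5 included Dusp1 (log2 difference 1.63, then 0.64), Trib1 (1.88, then 0.61), Btg2 (1.68, then 0.39) and Klf4 (1.23, then 0.43); no difference between the hours passed for them.

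**Figure D5:**
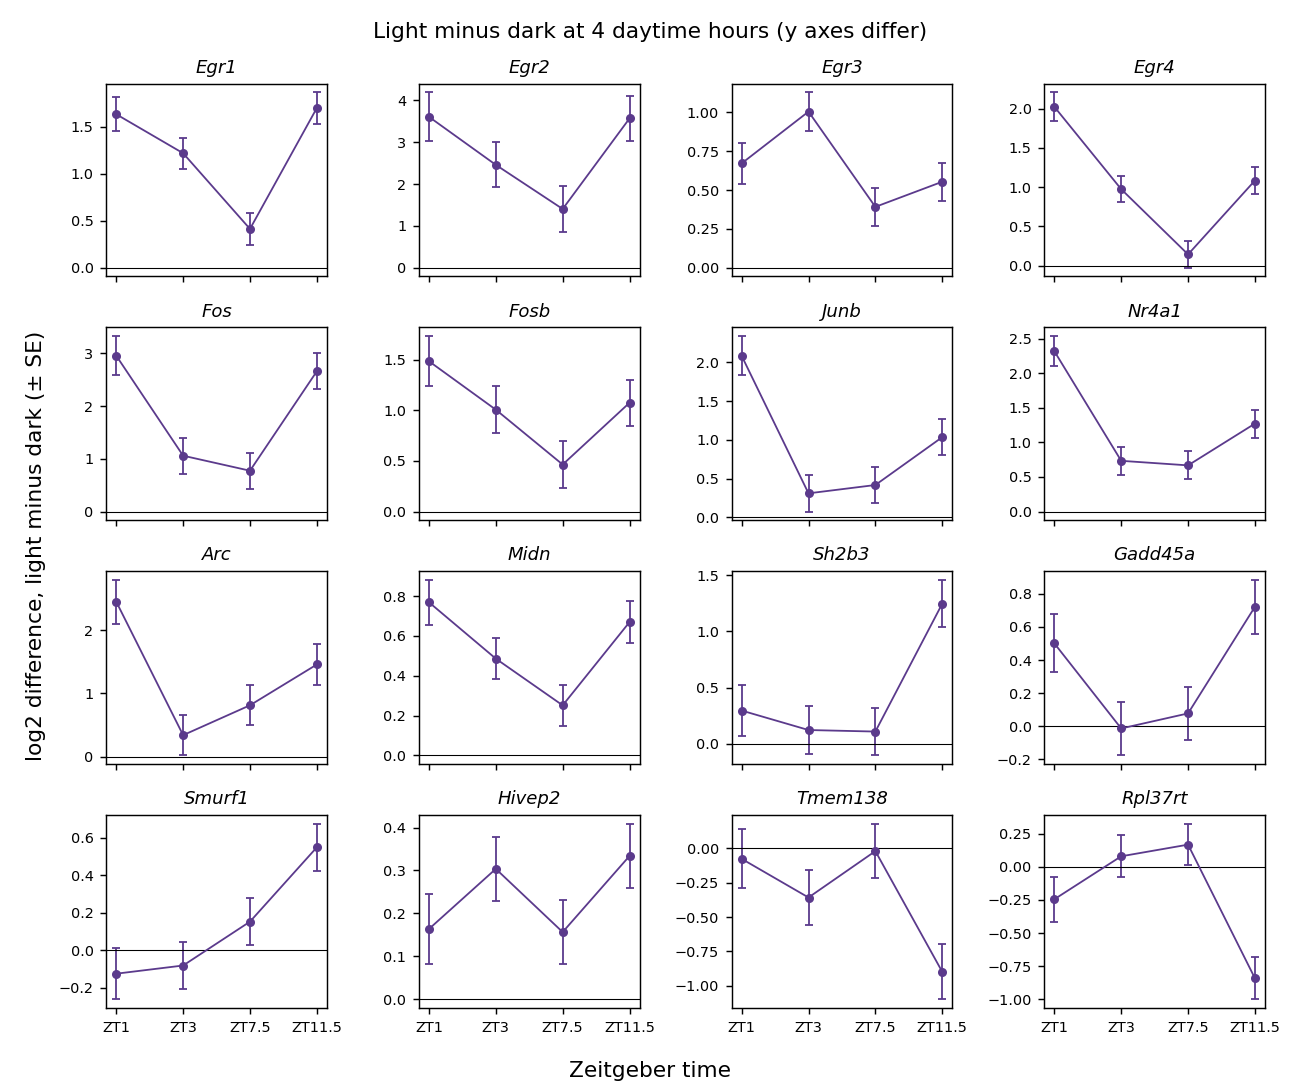
Log2 difference, light minus dark, with its SE at ZT1, ZT3, ZT7.5 and ZT11.5 for the 16 called genes (y axes differ between panels; hours are drawn at equal spacing). Egr1, Egr2 and Fos dip at ZT7.5 and are high at ZT1 and ZT11.5, while Sh2b3 and Smurf1 stand above 0 by more than 2 SE at ZT11.5 alone.

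Sh2b3, Gadd45a, Hivep2 and Smurf1 were called at ZT11.5 and at neither ZT1 nor ZT3. For Sh2b3 the difference was 0.30, 0.12 and 0.11 at the earlier hours, and that at ZT11.5 exceeded them by 0.95, 1.12 and 1.14, which did not pass (adjusted p = 1, 0.65 and 0.42). Its light means were 40.4 ± 5.73, 31.7 ± 6.28, 33.0 ± 5.60 and 40.8 ± 11.0, and its dark means 32.6 ± 3.99, 28.7 ± 2.29, 30.4 ± 4.57 and 16.5 ± 3.82. Dark ZT11.5 was thus the lowest of these means, and Light ZT11.5 was close to Light ZT1. Smurf1 had light means of 130.4 ± 9.49 at ZT7.5 and 127 ± 6.55 at ZT11.5 and dark means of 117 ± 11.8 and 86.3 ± 5.78. For Rpl37rt the dark mean was 257 ± 42.6 at ZT7.5 and 374 ± 63.1 at ZT11.5, and its light mean was 289 ± 50.9 and 207 ± 20.7. The change in its difference from ZT7.5 was -1.01 (SE 0.22, adjusted p = 0.16). For Tmem138 the dark means were 39.2 ± 11.0, 50.0 ± 8.18, 49.3 ± 3.77 and 65.7 ± 7.37, and the difference changed from ZT7.5 by -0.88 (adjusted p = 0.5).

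Genes next to the threshold came from several functions. Just above it on the higher side, besides Cdkn1a, were Ube2ql1, a ubiquitin-conjugating enzyme gene (0.34, adjusted p = 0.074), and Cx3cl1, the neuronal chemokine fractalkine (0.49, adjusted p = 0.074). Cx3cl1 was at 2641, 2352, 2391 and 2930.1 in light and 1910.0, 2009, 1537 and 1896 in dark libraries, without overlap. The somatostatin receptor Sstr2 was at 86.3, 75.0, 98.3 and 85.3 against 59.6, 56.4, 46.6 and 40.5 (0.76, adjusted p = 0.078), and the beta-adrenergic receptor Adrb1 at 141, 154, 182 and 174 against 124, 129.5, 80.1 and 111 (0.56, adjusted p = 0.078). Sqle, an enzyme of cholesterol synthesis, was at 131, 121, 133 and 125 against 101, 86.0, 78.9 and 61.2 (0.66, adjusted p = 0.078), and it was the member that DESeq2 called of 15 cholesterol genes, of which limma and edgeR called 0 (1 higher and 1 lower at an unadjusted p under 0.05, median 0.03). The other rises nearest the threshold were Zswim6, Dnajb5 and Arid3b, from 0.50 to 0.90. On the lower side stood Khsrp, an RNA decay factor (42.0, 43.7, 35.5 and 35.5 against 56.7, 59.3, 68.1 and 95.8, -0.80, adjusted p = 0.11), the chaperone gene Dnajb6 (-0.97, adjusted p = 0.11) and S100a13 (-0.55, adjusted p = 0.14), with Alg11, Serac1, Cpne7, Snhg20 and Mphosph6 from -0.91 to -0.56.

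On reads recovered from the deposited values, edgeR called 14 genes higher (0.133%) and 3 lower (0.0285%), and DESeq2 31 (0.295%) and 10 (0.095%). Each of the 16 limma calls was also made by both. The additional gene in edgeR was Rpl37. DESeq2 called 25 more, among them Gnas, which encodes a stimulatory G protein (8456, 8699, 9503 and 8687 in light against 7176, 7501, 6851 and 7148 in dark libraries, 0.30 in limma), the mitochondrial deacetylase gene Sirt3 (0.29), the vesicle fusion factor gene Napa (0.24), and Fmnl1, Mn1 and Smarce1 (0.49, 0.63 and 0.42). For Gnas all light libraries lay above all dark ones.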

How the data were processed

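Visual cortex RNA was measured in 57 libraries of 15 groups, of which the 8 at ZT11.5 are described. The submitters' processing notes name cutadapt, STAR 2.5.2b, DESeq2 and the build mm10 (GRCm38). The deposited table holds 1 signal value per gene and library, gene counts that the authors divided by a size factor. Annotation, strand setting and molecular identifiers are not stated there, and genes that overlap may share reads. Date names stood in 27 of 24421 rows (0.318% to 0.342% of reads at ZT11.5) and were left out. The value of 1 read was found from the spacing of low values: 100% of values were whole reads within 0.01 (largest distance 0.00666).

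Genes with a mean of at least 10 were tested with limma 3.58.1 (R 4.3.3, mean-variance trend, two-sided) on log2(value + 1), with all 57 libraries sharing 1 spread. The scale understates the change of low genes. The contrasts were light minus dark at ZT11.5 and its difference from ZT1, ZT3 and ZT7.5, with Benjamini-Hochberg adjustment over all genes tested. Alternatives were a pseudocount of 5, no filter, a minimum of 50, TMM, only the groups compared, a replicate block, terms for replicates 3 and 4, Xist, Prkcd and Tnnt1, or (added after seeing the data) Ttr, no libraries under the depth minimum (7 of 57), each library left out, edgeR 4.0.16 and DESeq2 1.42.0 on recovered reads. The fit was also run on simulated counts with known changes. These were drawn without the replicate and hour differences of the real libraries, so that run cannot show that the calls hold under them.

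Members and gene lists were chosen with earlier results of these data known. The genes named were the called genes, tested members of the early-response and effector lists, the 10 rises and 10 falls next to the threshold, the 4 smallest p of other lists, and calls of the count tests alone. Replicates are biological per the labels, but separate animals are not stated, and each p-value rests on the spread among these libraries, which may be technical. Promoters came from RefSeq (GRCm38.p6) and gene positions from GENCODE M21.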

Additional observations from a re-analysis of the deposited data

Results flagged for a closer look

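The difference of Egr1 between ZT11.5 and ZT7.5, 1.29 on the log2 scale, was noted because the interaction term itself passed.

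Of 402 sets of 4 values examined, 24 (5.97%) held a library far from the other 3 by Dixon's criterion, where chance gives about 5%. Among early-response and effector genes, the library apart was a high one for Dusp6 (83.7, light), Spry4 (47.3, light) and Spred1 (204, dark), and a low one for Klf2 (70.5, light), Arl4d (3.96, light), Junb (282, dark) and Lingo1 (1576, dark). Of genes next to the threshold or called by count tests alone it was Ube2ql1 (1872) and Sirt3 (513.0) on the high side in light, Mn1 (68.1) on the high side in dark, and Zswim6 (28.7) on the low side in light. Among markers and other lists, light libraries stood apart in Pdia6 (691), Hyou1 (19.1), Olig2 (92.8), Tagln (33.7), Ptgds (9684), Penk (219) and Prkcd (53.6). Dark libraries did so in Tmem237 (168), Cirbp (370.4), Insig1 (33.5), Cldn11 (410.4) and Sdha (870.1). Gapdh was at 61.2 in dark replicate 4 and at 2350 or more in the other dark libraries.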

How the results depend on the processing

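The count of 16 called genes was 25 with a term for replicates 3 and 4 in each arm and 41 by DESeq2, and it ran from 7 to 14 when 1 library was left out: 7 without dark replicate 3, 8 without light replicate 3. Under the other alternatives it was 12 to 22. Egr1, Egr2, Egr4, Fos, Midn, Nr4a1 and Sh2b3 kept their calls under each alternative in which they were tested (a minimum of 50 left out Egr2 and Sh2b3), and Rpl37rt under each but the fit without dark replicate 3 (adjusted p = 0.0639). Arc, Egr3, Fosb, Gadd45a, Hivep2, Junb, Smurf1 and Tmem138 lost theirs under 6 to 10 alternatives, with an adjusted p of up to 0.277 for Arc, 0.318 for Junb and 0.288 for Smurf1; the cause was not tested. With only the groups compared, Egr3, Fosb, Gadd45a, Hivep2, Junb, Arc and Smurf1 were not called, at the same log2 differences. The 16 called genes, Cdkn1a, Npas4, Gapdh and the Egr1 difference from ZT7.5 were followed under the alternatives, and 0 of them reversed.

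The single call between ZT11.5 and ZT7.5 became 0 without the filter, with only the groups compared, with Prkcd and Tnnt1 as terms and without the 7 shallowest libraries, 0 to 1 with 1 library left out, and 3 by DESeq2. Same-numbered light and dark libraries correlated at -0.153, -0.022, 0.0508 and -0.195, and not every library correlated best with its own number. Such correlations, from 4 libraries an arm, cannot show what the replicate numbers stand for. In both arms Xist was above 20 in replicates 3 and 4 only. The replicate block gave 19 calls, 17 higher and 2 lower. At 2266362 to 3353306 reads a library, a gene at a mean of 10 rests on few reads, and small changes of such genes were not detectable.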

Other observations

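Gapdh, which encodes a glycolytic enzyme often taken as a constant reference, had the most negative difference of all genes tested at ZT11.5 and was not called by limma. It was at 92.6, 60.7, 68.3 and 96.2 in light replicates 1 to 4 and at 2350.3, 2455, 2588 and 61.2 in dark replicates 1 to 4 (log2 difference -3.64, SE 1.21, adjusted p = 0.3; DESeq2 adjusted p = 0.033). Over the series 13 of 57 libraries were above 500, from 573.8 to 2781, and the others lay between 39.8 and 325.9. Those 13 comprised 4 light and 9 dark libraries. Of the 4 dark libraries at ZT11.5, 3 were among them.

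Endoplasmic reticulum chaperones were mixed: of 15 tested limma, edgeR and DESeq2 called 0, with 2 higher and 1 lower at an unadjusted p under 0.05. Pdia6 was at 691, 607, 609.8 and 617 in light and 510.4, 489, 563 and 551 in dark libraries (0.26, adjusted p = 0.26), and Pdia4 at 20.6, 17.9, 12.7 and 13.5 against 21.1, 18.8, 25.1 and 24.7 (-0.46, adjusted p = 0.52). Heat shock and cold-inducible genes had a median of 0.04 over 15 tested, with 0 called by limma, edgeR or DESeq2 and 1 higher at an unadjusted p under 0.05. Cirbp, a cold-inducible RNA-binding protein, was at 368, 377, 377 and 379 against 459, 456, 456 and 370.4 (-0.21, adjusted p = 0.83), where 3 of 4 dark libraries lay above all light libraries. Rspo1, a Wnt agonist and layer marker, was at 81.5, 105, 117 and 89.5 against 76.9, 62.3, 59.7 and 71.1 (0.53, adjusted p = 0.19) without overlap. Gpr17, a receptor of oligodendrocyte precursors, was at 142, 140.2, 154 and 131 against 129.8, 93.0, 115 and 108 (0.36, adjusted p = 0.46), also without overlap.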
